A study of Mus musculus with 2 samples.

Results

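The 29 genes described here are mouse counterparts of genes in which mutations raise the risk of autism in people. They were chosen by symbol from a fixed list, and each symbol was found once among the 32285 genes of the count matrices. By the role of their products, 19 are regulators of chromatin and transcription, 7 are proteins of synapses and the neuronal membrane, and 3 are a kinase or parts of ubiquitin ligases. They were measured by droplet single-cell RNA sequencing of cortex at postnatal day 5, in 1 library from wild-type mice (WT) and 1 from mice with a mutation of Katnal2 (Mut), a gene for a katanin-like protein of the family that severs microtubules. The labels do not give the strain, the mutated part of the gene, the sort gate or which cells came from which animal. The treatment label speaks of dissection without any agent and deep-frozen storage. With 1 library for each genotype no test between genotypes was possible. Every interval below is a 95% interval for counting error alone, and it does not hold the spread between animals.

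Chromatin regulators open or close DNA around genes. Chd8 and Chd2 encode ATP-driven remodellers, Arid1b a subunit of the BAF remodelling complex, Kmt2a and Kmt2c histone H3 lysine methyltransferases, and Tcf4, Bcl11a, Foxp1 and Myt1l transcription factors. In the synaptic group, Shank2 and Shank3 encode scaffolds of the postsynaptic density, Grin2b a subunit of the NMDA glutamate receptor, Nlgn3 an adhesion protein that binds neurexins, Scn2a a voltage-gated sodium channel and Ank2 an ankyrin that anchors membrane proteins to the cytoskeleton. Such genes are usually discussed as genes of neurons, whereas the cells of these libraries were mostly glia, so the question addressed here is which cell types carried each transcript.

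Barcodes kept as cells, which had 1000 or more unique molecular identifiers (UMIs), 500 or more genes and no more than 20% of UMIs from mitochondrial genes, numbered 11024 in WT and 10102 in Mut, with medians of 6446 and 7625.5 UMIs. The libraries shared 39 of these barcodes. Cells were put into classes from marker genes, none of which is among the 29, and class names below stand for cells like those named. Astroglia made up 4834 WT and 4642 Mut cells, oligodendrocyte precursors 2032 and 1835, and GABAergic neurons 1405 and 999. Excitatory neurons, the main neurons of the cortex, numbered only 26 and 30. Their marker Neurod2 stood at 415 CPM in WT and 431 CPM in Mut (CPM, the gene's UMIs scaled to 1000000 UMIs of the class). Neurod6 stood at 545 and 486 CPM, Tbr1 at 398 and 332, Neurod1 at 285.5 and 301.4, and Slc17a6 at 251 and 240. Slc17a7 was lower, at 8.65 and 55.4 CPM, from few UMIs in so small a class. Among markers of the GABAergic class, Dlx1 stood at 787 and 845 CPM, Dlx2 at 607 and 643, Dlx5 at 419 and 461, and Dlx6os1 at 882 and 943. Sp9 stood at 749 and 796, Gad2 at 473 and 453, Gad1 at 227 and 237.5, and Slc32a1 at 67.5 and 72.2. In this class 289 WT and 220 Mut cells had UMIs of at least 5 of 8 cell-cycle genes, so it held dividing cells too. Endothelial cells numbered 304 and 366, microglia 445 and 336, mural cells 264 and 282, border-associated macrophages 102 and 242, and oligodendrocytes 100 and 85. Female cells, taken as those with Xist and no Y-linked UMIs, were 47.3% of WT cells and 65.6% of Mut cells that could be assigned. Astroglia did not split alike in the libraries. In a clustering, 3 astroglia clusters differed over 1.5-fold in cell number, the largest with 1437 WT and 742 Mut cells and the next with 580 and 1182. In the largest, 21 of the Mut cells and 468 of the WT cells were male. Katnal2 itself stood at 3.87 CPM (3.46 to 4.31) in WT and 4.82 CPM (4.37 to 5.30) in Mut over all cells, which does not check the labels, since the mutated part is not known.

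Across the 12 classes with at least 20 cells in each library, 19 of the 29 genes had the same highest class in both. It was the excitatory neuron for 12 of them, the oligodendrocyte precursor for Nlgn3 and Dscam, and the GABAergic neuron for Bcl11a. It was the endothelial cell for Shank3, the fibroblast for Foxp1, the microglia for Med13l and the monocyte for Trip12. None was highest in astroglia in both libraries. For most genes this order is not firm at the top. The intervals of the first and the next class left each other out in both libraries only for Tcf4, Bcl11a, Myt1l, Grin2b, Nlgn3 and Dscam. The heat map of levels by class shows that most chromatin genes form even rows, while the rows of the synaptic genes are broken.

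**Figure D1:**
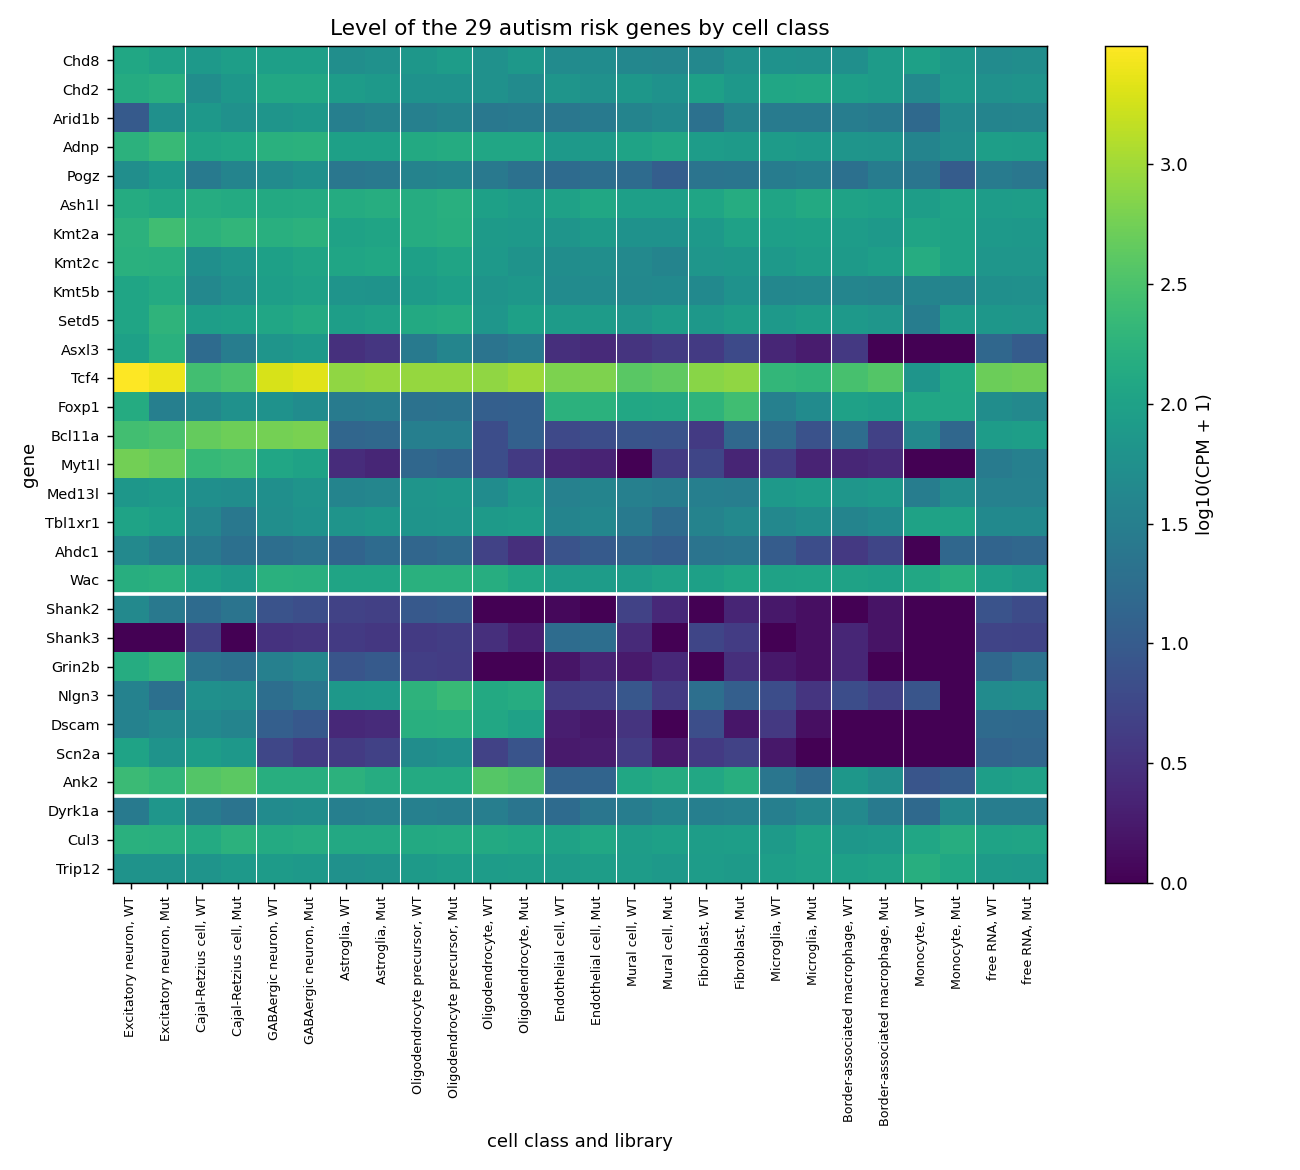
Level of each of the 29 genes (rows, in the groups chromatin and transcription, synapse and membrane, and kinase and ubiquitin ligase, parted by white lines) in each cell class and library (columns), as log10(CPM + 1). The last pair of columns is free RNA, from barcodes of 10 to 100 UMIs. Bcl11a is bright in the GABAergic neurons (585 CPM in WT, 623 CPM in Mut) and dark in astroglia (13.04 and 14.1 CPM).

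Among the 29 genes, the transcription factor genes Myt1l and Bcl11a had the highest ratios of GABAergic neurons to astroglia. Set against astroglia, with a gene counted only when its CPM differed at least 2-fold the same way in both libraries, 7 of the 29 genes were higher in GABAergic neurons and 1 was lower. Over all 13127 genes with at least 100 UMIs the same rule called 16.5% higher and 23.1% lower. The median log2 ratio was 0.63 over the 29 genes and 0.10 over all genes tested. The 7 genes were Bcl11a, Myt1l, Asxl3, Tcf4 and Arid1b from the chromatin and transcription group (5 of 19), and Grin2b and Dscam from the synaptic group (2 of 7).

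Bcl11a encodes a zinc finger transcription factor that is also found with BAF complexes, and it lies on chr11:24078056-24174123 (GRCm38, plus strand). Its level was 585 CPM in WT and 623 CPM in Mut GABAergic neurons. In astroglia it was 13.04 and 14.1 CPM. The ratio was 44.9 in WT (41.0 to 49.2) and 44.0 in Mut (40.5 to 48.0), so the libraries differed far less than the cell types. Cajal-Retzius cells, transient neurons of the outermost cortical layer, followed with 462 and 522 CPM, and excitatory neurons had 268 and 308 CPM. The others of the 12 classes were under 44 CPM. Free RNA held 85.4 and 89.9 CPM, more than astroglia did. The promoter of this neuron-high gene is shown because it is rich in CG dinucleotides although the gene is quiet in most classes. The bases are the 250 before the RefSeq start, with each CG in capitals, from GRCm38.p6, chr11:24080445-24080694, plus strand.
Bcl11a: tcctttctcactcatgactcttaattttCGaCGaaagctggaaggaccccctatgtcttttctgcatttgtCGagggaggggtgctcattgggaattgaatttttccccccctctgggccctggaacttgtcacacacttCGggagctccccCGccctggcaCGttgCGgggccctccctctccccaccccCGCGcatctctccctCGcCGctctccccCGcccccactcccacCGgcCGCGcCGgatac

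Myt1l encodes a zinc finger factor that holds down non-neuronal genes in neurons. It stood at 116 CPM in WT and 103 CPM in Mut GABAergic neurons. In astroglia it stood at 1.80 and 1.35 CPM. The ratio was 64.2 (50.5 to 82.5) in WT and 76.7 (58.9 to 101) in Mut, the highest ratio among the 29 genes. Unlike Bcl11a, it was higher still in excitatory neurons, with 562 CPM (434 to 717) in WT and 480 CPM (379 to 599) in Mut. Asxl3 encodes a Polycomb-related protein of the complex that removes ubiquitin from histone H2A. It stood at 64.5 and 74.4 CPM in GABAergic neurons against 2.04 and 2.58 CPM in astroglia, a ratio of 31.6 in WT and 28.8 in Mut. It was also present in oligodendrocyte precursors, at 26.2 and 37.4 CPM. The few astroglial UMIs of these genes weigh on the size of the ratios. Leaving out the barcodes with the highest doublet scores raised the mean log2 ratio of Myt1l from 6.13 to 7.26, that of Asxl3 from 4.92 to 5.51 and that of Dscam from 2.53 to 3.66. Classes taken from clusters in place of the marker rule lowered Myt1l to 5.40 and Bcl11a from 5.47 to 4.80.

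Tcf4, a basic helix-loop-helix factor, was found in every class. Its level was 1947 CPM in WT and 2203 CPM in Mut GABAergic neurons, and 817 and 861 CPM in astroglia. The ratio was 2.38 (2.34 to 2.43) in WT and 2.56 (2.51 to 2.61) in Mut. Excitatory neurons had 3123 and 2553 CPM, the highest of all classes, whereas microglia had 206 and 194 CPM and Cajal-Retzius cells 274 and 315 CPM. The neuron classes thus spanned a wide range for Tcf4. Foxp1, a forkhead factor, stood at 58.8 and 49.1 CPM in GABAergic neurons against 27.7 and 29.5 CPM in astroglia, a ratio of 2.12 in WT and 1.66 in Mut, which left it outside the rule.

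**Figure D2:**
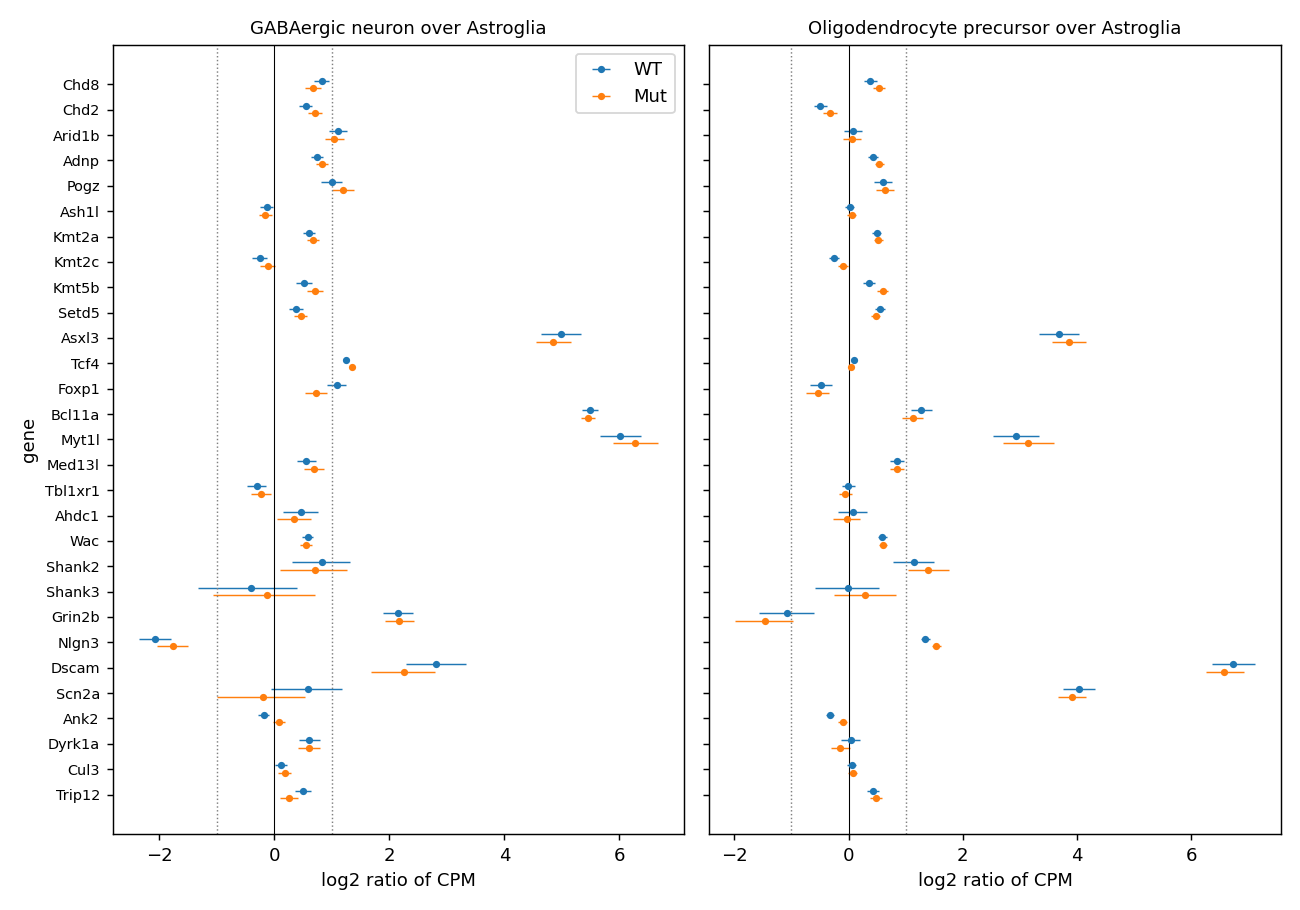
Log2 ratio of CPM of each gene in GABAergic neurons over astroglia (left) and in oligodendrocyte precursors over astroglia (right), in WT (blue) and Mut (orange), with 95% counting intervals; dotted lines mark the 2-fold limits. Myt1l lies at a ratio of 64.2 and 76.7 on the left, and Dscam at 106 and 95.8 on the right, while most chromatin genes lie between the limits.

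The enzymes and remodellers were spread more evenly. Arid1b just met the rule, with 66.4 and 72.5 CPM in GABAergic neurons against 30.8 and 35.1 CPM in astroglia (ratio 2.16 in WT and 2.07 in Mut). Under TMM scaling its mean log2 ratio was 0.85, below the 2-fold limit. Pogz, a zinc finger protein that binds heterochromatin protein HP1, just missed it, with ratios of 1.998 and 2.30. Chd8 stood at 93.8 and 93.2 CPM in GABAergic neurons and at 53.0 and 58.2 CPM in astroglia, a ratio of 1.77 in WT and 1.60 in Mut. Chd2, the related remodeller, had ratios of 1.46 and 1.63, and Adnp, which forms a complex with Chd4, had 1.68 and 1.78. Of the methyltransferase genes, Kmt2a had ratios of 1.52 and 1.60 and Kmt5b, whose product methylates histone H4 lysine 20, had 1.43 and 1.64. Kmt2c, at 0.84 and 0.93, and Ash1l, at 0.91 and 0.90, were slightly lower in neurons than in astroglia. Setd5, a SET domain protein, had ratios of 1.30 and 1.38. None of these genes apart from Arid1b passed 2-fold in both libraries, and Pogz passed it in Mut alone.

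The remaining coregulators were as even. Wac, an adaptor of the machinery that ubiquitinates histone H2B, stood at 162 and 159 CPM in GABAergic neurons and at 108 CPM in astroglia of both libraries. Med13l, a part of the kinase module of Mediator, had ratios of 1.48 and 1.62. Tbl1xr1, a component of the NCoR corepressor complex, had 0.81 and 0.86. Ahdc1, which encodes an AT-hook protein, stood at 17.2 and 20.1 CPM in GABAergic neurons and at 12.5 and 15.7 CPM in astroglia.

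In oligodendrocyte precursors several synaptic genes were higher than in astroglia, and Nlgn3 and Dscam had their highest level there. In this class 7 of the 29 genes were at least 2-fold higher than in astroglia and 1 was lower, against 16.6% and 10.5% of all 13588 genes tested. In the synaptic group 4 of 7 were higher and the median log2 ratio was 1.27, beside 0.32 over all genes. TMM scaling shifts the log2 ratios of this comparison by a mean of -0.36, and 4 of the 7 genes (Asxl3, Myt1l, Dscam and Scn2a) then remained above the limit. Bcl11a, Shank2 and Nlgn3 did not, which left 2 of the 7 synaptic genes. Oligodendrocyte precursors are known to receive synapses from neurons and to carry voltage-gated channels.

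Dscam, an immunoglobulin-family adhesion molecule that serves self-avoidance of neurites, lies on chr16:96590840-97170752 (GRCm38, minus strand). In oligodendrocyte precursors it stood at 160 CPM in WT and 164 CPM in Mut. In astroglia it was at 1.51 and 1.71 CPM, from 63 and 79 UMIs. The ratio was 106 in WT (82.4 to 138) and 95.8 in Mut (76.5 to 122), and it grew to a mean log2 ratio of 7.83 from 6.65 once the highest doublet scores were left out. GABAergic neurons held 10.6 and 8.14 CPM, less than the 15.2 and 14.8 CPM of free RNA, so the count of Dscam among the neuron-high genes rests on a level under that of the free RNA. Excitatory neurons, with 34.6 and 43.1 CPM, rest on 4 and 7 UMIs. The promoter is shown as the example of a gene high in the oligodendrocyte lineage, from GRCm38.p6, chr16:97170736-97170985, minus strand, with each CG in capitals.
Dscam: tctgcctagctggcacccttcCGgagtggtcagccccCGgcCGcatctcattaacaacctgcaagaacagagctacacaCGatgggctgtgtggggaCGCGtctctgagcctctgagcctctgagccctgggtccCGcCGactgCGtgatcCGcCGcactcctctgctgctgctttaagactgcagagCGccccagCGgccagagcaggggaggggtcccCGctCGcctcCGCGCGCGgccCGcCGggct

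Nlgn3, on the X chromosome (chrX:101299168-101325963, plus strand), was higher in astroglia and the oligodendrocyte lineage than in GABAergic neurons, but not in microglia (5.61 and 2.46 CPM). Oligodendrocyte precursors had 181 CPM in WT and 224 CPM in Mut, oligodendrocytes 133 and 145 CPM, and astroglia 71.4 and 76.9 CPM. GABAergic neurons had 17.1 and 22.7 CPM, under the 48.1 and 50.5 CPM of free RNA. The ratio to astroglia was 0.24 (0.20 to 0.29) in WT and 0.30 (0.24 to 0.35) in Mut for GABAergic neurons, which made Nlgn3 the single gene of the 29 that was lower in them. For oligodendrocyte precursors the ratio was 2.53 (2.40 to 2.68) and 2.91 (2.76 to 3.06). Under TMM scaling it was 1.97 in WT and 2.25 in Mut, so the call was lost.

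Scn2a stood at 50.05 and 55.2 CPM in oligodendrocyte precursors and at 3.05 and 3.67 CPM in astroglia, a ratio of 16.4 (13.5 to 20.01) in WT and 15.1 (12.7 to 17.9) in Mut. Cajal-Retzius cells had 88.5 and 71.5 CPM and excitatory neurons 104 and 61.5 CPM. GABAergic neurons were low, with 4.58 and 3.22 CPM, below the 12.02 and 13.1 CPM of free RNA. The level of the sodium channel transcript thus differed between these classes. The GABAergic class includes dividing cells, and the part of cell maturity in its low level was not tested. Shank2 was at 8.43 and 9.499 CPM in precursors against 3.82 and 3.60 CPM in astroglia, a ratio of 2.21 and 2.64, and in ependymal cells, of which there were only 17 and 20, it reached 82.4 CPM (43.9 to 141) and 44.4 CPM (22.2 to 79.5). The other genes that were higher in precursors were Asxl3 (ratio 12.9 and 14.5), Myt1l (7.61 and 8.81) and Bcl11a (2.42 and 2.18). Of these the mean log2 ratio of Bcl11a, 1.20, was under the limit without the unequally held astroglia clusters (0.82), with classes from clusters (0.57) and under TMM scaling (0.84), where that of Shank2 was under it too (0.91). Grin2b was the gene that was lower, with under 100 UMIs in precursors, at 3.47 and 3.19 CPM in precursors against 7.28 and 8.79 CPM in astroglia, though in male cells alone its mean log2 ratio was -0.88. It was higher in GABAergic neurons, at 32.3 and 39.8 CPM (ratio 4.43 and 4.53), and highest in excitatory neurons, at 147 CPM (85.7 to 235) and 185 CPM (124 to 263).

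**Figure D3:**
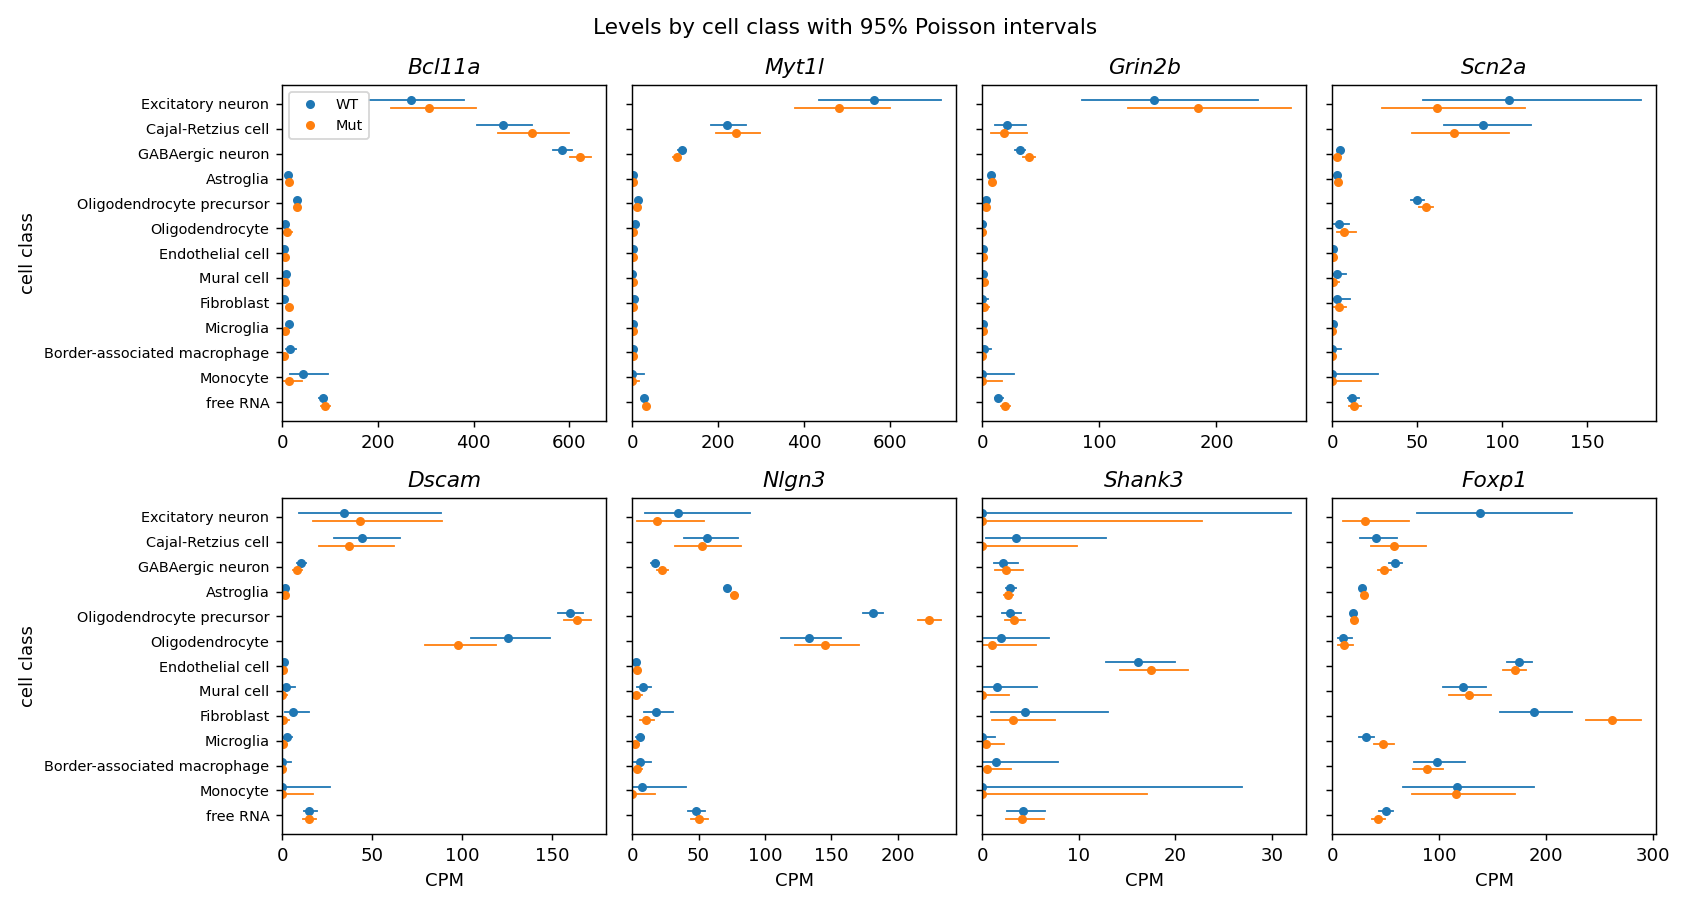
CPM with 95% Poisson intervals of 8 genes (panels) in 12 cell classes and in free RNA, in WT (blue) and Mut (orange). Bcl11a, Myt1l and Grin2b are high in neuron classes, Dscam and Nlgn3 in oligodendrocyte precursors and oligodendrocytes, Scn2a in excitatory neurons, Cajal-Retzius cells and precursors, Shank3 in endothelial cells (16.1 and 17.5 CPM), and Foxp1 in fibroblasts, endothelial and mural cells.

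Oligodendrocytes were also compared with precursors, and Ank2 was the gene called higher. This comparison was chosen after the levels had been seen. Ank2 was higher in oligodendrocytes, at 371 CPM in WT and 333 CPM in Mut against 138 and 135 CPM in precursors, a ratio of 2.69 (2.40 to 3.004) and 2.46 (2.18 to 2.77). Scn2a was lower, at 3.83 and 6.97 CPM, a ratio of 0.077 (0.021 to 0.20) and 0.13 (0.051 to 0.26). Shank2 had no UMI in oligodendrocytes of either library, which allows up to 2.87 and 2.99 CPM at 3 counts. Nlgn3 and Dscam stayed within 2-fold of precursors, Dscam at 126 and 97.6 CPM. In all, 1 of the 27 genes tested was higher and 5 were lower, beside 4.75% and 20.8% of all 11491 genes tested. All 5 reached 100 UMIs only through the precursors, so nothing is read from that count. Bcl11a, Myt1l and Ahdc1 were the others that were lower, each from 11 or fewer UMIs in oligodendrocytes of a library. With classes from clusters, which put 174 WT and 142 Mut cells in the oligodendrocyte cluster, the mean log2 ratio of Bcl11a was 1.24 in place of -1.98, that of Myt1l 0.54 in place of -1.62, that of Ahdc1 -0.62 in place of -2.36 and that of Scn2a -1.77 in place of -3.35.

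In endothelial cells Ank2 was far lower than in astroglia, whereas Shank3 was higher. In these cells 2 of the 29 genes were at least 2-fold higher than in astroglia and 7 were lower, beside 14% and 24.1% of all 13336 genes tested. Of the 7 lower genes, 5 (Nlgn3, Grin2b, Scn2a, Shank2 and Bcl11a) reached the minimum of 100 UMIs only through astroglia, so nothing is read from that count. Ank2 was at 11.8 and 12.4 CPM against 173 and 145 CPM in astroglia, and Nlgn3 at 3.11 and 3.32 CPM. The low level of Ank2 did not extend to mural cells, the other vessel class, where it was at 120 and 141 CPM. Grin2b, Scn2a and Shank2 rested on 7 or fewer UMIs in each library. The other genes that were lower were Kmt2c (50.3 and 51.7 CPM against 113 and 118 CPM) and Bcl11a (4.86 and 5.77 CPM). With free RNA subtracted at an assumed 5% of UMIs, the mean log2 ratio of Nlgn3 moved from -4.53 to -6.59, that of Scn2a from -2.02 to -3.80 and that of Bcl11a from -1.36 to -3.42. Kmt2c lay at the limit, with -0.99 when each cell was weighted alike and -1.18 otherwise.

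Shank3, a scaffold of excitatory synapses (chr15:89499623-89560261, plus strand), was at 16.1 CPM (12.8 to 19.98) in WT and 17.5 CPM (14.2 to 21.2) in Mut endothelial cells, from 83 and 100 UMIs. Astroglia had 2.93 and 2.67 CPM, GABAergic neurons 2.21 and 2.46 CPM, and free RNA 4.22 and 4.09 CPM. The ratio to astroglia was 5.50 (4.11 to 7.33) in WT and 6.54 (4.98 to 8.59) in Mut. Excitatory neurons had no Shank3 UMI in either library. Their depth was small, since 3 UMIs there equal 26.0 CPM in WT and 18.5 CPM in Mut. Whether their level lay below that of endothelial cells was not tested. An opposite-strand gene, Gm15609, overlaps exons of Shank3, and whether the counting used strand is not given in the sources used here. Its promoter had the most CG dinucleotides of the 3 printed here, and it is given from GRCm38.p6, chr15:89499358-89499607, plus strand.
Shank3: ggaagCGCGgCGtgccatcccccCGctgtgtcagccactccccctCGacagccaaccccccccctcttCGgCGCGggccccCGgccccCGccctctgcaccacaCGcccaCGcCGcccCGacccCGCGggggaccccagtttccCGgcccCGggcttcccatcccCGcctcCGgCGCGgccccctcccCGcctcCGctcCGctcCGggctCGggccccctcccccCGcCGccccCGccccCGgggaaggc

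Foxp1 was the other gene that was higher in endothelial cells, at 175 and 171 CPM, a ratio to astroglia of 6.31 (5.77 to 6.89) and 5.79 (5.32 to 6.29). Fibroblasts had 189 and 262 CPM and mural cells 123 and 128 CPM, while oligodendrocytes had the least, 10.5 and 11.0 CPM. The vascular and meningeal classes thus held more Foxp1 than GABAergic neurons did.

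In microglia 1 gene was higher and 7 were lower than in astroglia, beside 13.2% and 31.1% of all 13181 genes tested. Of the 7 lower genes, 5 (Nlgn3, Shank2, Shank3, Grin2b and Scn2a) reached 100 UMIs only through astroglia, so nothing is read from that count. Ank2 was at 22.5 and 15.2 CPM and Nlgn3 at 5.61 and 2.46 CPM, and Shank2, Shank3, Grin2b and Scn2a each rested on 2 or fewer UMIs in a library. The mean log2 ratio of Nlgn3, -4.32, was -5.04 without the highest doublet scores and -2.99 with classes from clusters. Tcf4 was the chromatin gene that was lower, with a ratio of 0.25 and 0.23. Med13l was the gene that was higher, at 75.1 and 84.1 CPM against 36.6 and 39.3 CPM (ratio 2.05 and 2.14). That call lay at the limit and was lost without the unequally held astroglia clusters, where the mean log2 ratio was 0.9999.

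The kinase and the ubiquitin ligase genes showed no class preference past 2-fold in any of the 4 comparisons with astroglia. Dyrk1a, a kinase gene of the region trisomic in Down syndrome, was at 47.6 and 50.6 CPM in GABAergic neurons and at 31.2 and 33.2 CPM in astroglia. Cul3, the scaffold of a family of ubiquitin ligases, was at 136 and 147 CPM against 126 and 129 CPM. Trip12, a HECT-domain ubiquitin ligase gene, was at 82.8 and 74.1 CPM against 58.3 and 61.7 CPM. Its highest class in both libraries was the monocyte, with 153 and 120 CPM from 37 and 46 cells.

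Dividing cells, those with UMIs of at least 5 of 8 cell-cycle genes, were compared with cells of the same class holding at most 1, a comparison also chosen after the levels had been seen. In astroglia none of the 29 genes differed 2-fold in both libraries (background 5.54% higher and 2.01% lower). In GABAergic cells 2 of 26 genes tested were lower in dividing cells and none was higher, beside 4.17% and 6.62% of all genes. Myt1l was at 34.0 CPM in WT and 30.7 CPM in Mut dividing cells, against 175 and 166 CPM in the rest, a ratio of 0.19 in each library. Asxl3 was at 31.3 and 30.7 CPM against 88.3 and 107 CPM, a ratio of 0.35 and 0.29. Bcl11a differed less, with a ratio of 0.73 and 0.74, and Tcf4 had a ratio of 0.98 and 1.03. The dividing GABAergic cells were deeper, with a median of 7115 UMIs in WT and 8576 in Mut against 3398.5 and 3842, and the part of depth in these ratios was not tested beyond thinning each cell to 1000 UMIs, which called 4 genes lower.

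Related genes from 6 pathway lists were read by the same rule. Of 26 other BAF complex subunits, 12 were higher and 1 lower in GABAergic neurons than in astroglia (median log2 ratio 0.97). The highest ratios were those of Bcl11b, the paralogue of Bcl11a (84.8 in WT and 98.9 in Mut), and Actl6b, the neuronal actin-like subunit (83.4 and 46.0). The lowest were Dpf3 (0.22 and 0.25) and Phf10 (0.66 and 0.71), of which Phf10 stayed within 2-fold. Of 14 COMPASS methyltransferase genes 2 were higher and none was lower, from Kmt2e (2.75 and 2.99) and Rbbp5 (2.09 and 3.08) at the top to Ncoa6 (0.89 and 1.14) and Men1 (0.87 and 1.19) at the bottom. Of 7 other CHD remodeller genes 3 were higher, led by Chd3 (8.75 and 8.06) and Chd5 (5.57 and 3.49), while Chd4 (1.39 and 1.36) and Chd1 (1.67 and 1.73) had the lowest ratios. Over all genes this comparison called 16.5% higher and 23.1% lower, with a median log2 ratio of 0.10. The 2 of 14 methyltransferase genes that were higher are near the first of these shares. Of the BAF genes called, Actl6b and Dpf3 had under 100 UMIs in the class where they were lower.

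Among 24 other postsynaptic density and partner genes, 21 had enough UMIs, of which 8 were higher and 3 lower in GABAergic neurons, against the same 16.5% and 23.1% of all genes. Nrxn3, a neurexin, led with ratios of 25.7 and 24.9, followed by the scaffold gene Dlgap3 (17.5 and 21.4). Nlgn1, another neuroligin gene, was among the lowest (0.090 and 0.081), at 59.6 and 60.7 CPM in astroglia. Nlgn1 had under 100 UMIs in GABAergic neurons, and Dlg2 and Dlgap3 had under 100 in astroglia. These genes met the minimum through the class where they were higher, so nothing is read from the counts of this list in GABAergic neurons. In oligodendrocyte precursors 12 of 22 genes of this list were higher than in astroglia and none was lower (median log2 ratio 1.26), beside 16.6% and 10.5% of all genes and their median of 0.32. Of the sodium channel and initial segment genes, 9 of 12 were higher in precursors and none lower (median log2 ratio 2.74), with Scn3a at 160 and 171 CPM and Scn1a at 27.8 and 32.3 CPM. Of these higher genes, 3 of 12 and 4 of 9 reached 100 UMIs only through the precursors, so the counts and medians of both lists support nothing here. In GABAergic neurons 3 of 8 were higher and 1 lower, with Scn3a (24.8 and 24.4) and Ank3 (7.24 and 6.65) at the top and Sptbn1 (0.44 and 0.36) and Fgf12 (0.53 and 0.43) at the bottom. Of 30 further autism risk genes, 8 were higher and 3 lower in GABAergic neurons, where 16.5% and 23.1% of all genes were. Auts2 (4.38 and 4.57) was among the highest and Cntnap2 (0.056 and 0.042) was the lowest. Cntnap2 had under 100 UMIs in GABAergic neurons, so it met the minimum through astroglia.

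RefSeq promoters, from 250 bases before to 50 after a start, were matched for 21 of the 29 genes, at 34 starts. The dinucleotide CG, which reads the same on both strands, occurred a median of 19 times in them, beside 7 times over 32851 promoters of the same length. The window of Bcl11a had 23, and 21.5% of all promoters had as many or more. Dscam had 26 (16.9% had as many or more) and Shank3 40 (3.91%). Values ranged from 1 in Setd5 to 61 in Med13l. A neuron-high, an oligodendrocyte-lineage and an endothelial gene therefore all had CG counts above the median. Myt1l, with 4 to 13 at its 5 starts, had fewer than Bcl11a.

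Between the genotypes most differences in the 29 genes were small in size. Over the 7 classes with at least 100 cells in each library, 151 pairs of gene and class had at least 100 UMIs. The level was at least 25% higher in Mut than in WT for 8 pairs, and at least 20% lower for 4. These limits, the same fold in either direction, are the fold used in what follows. In 7 of these 12 pairs the interval left out 1. Over all genes tested, those past the fold with such an interval numbered 939 of 12817 in astroglia, 640 of 11337 in oligodendrocyte precursors and 798 of 6031 in microglia. They numbered 928 of 8779 in GABAergic neurons, 753 of 8539 in endothelial cells, 385 of 4060 in mural cells and 367 of 3696 in border-associated macrophages. At any ratio the interval left out 1 in 45 of the 151 pairs. The share over all genes was not computed for that count, so nothing is read from it. Over all genes the shares past the fold ranged by class from 5.93% to 16.8% higher and from 2.43% to 7.47% lower. The median log2 ratio of the 29 genes was 0.088 in astroglia, 0.095 in oligodendrocyte precursors and 0.12 in GABAergic neurons, beside 0.047, 0.050 and 0.083 over all genes tested. In these 3 classes both medians therefore lay slightly above a ratio of 1. In border-associated macrophages the median was -0.057 over the 15 members tested, of which 7 were above 1, and 0.053 over all genes. Taken over all classes, Mut cells were also deeper and more often female. The median of UMIs was lower in Mut, though, for endothelial cells (12068.5 in WT, 10651 in Mut) and mural cells (4376 and 4289.5). Border-associated macrophages were less often female in Mut (72.7% in WT, 62.1% in Mut). The part of depth, sex, animal and handling in these ratios cannot be told apart from that of genotype.

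In astroglia 2 of 29 genes were past the fold higher and 1 lower, beside 6.7% and 2.7% of all genes tested. Ahdc1 stood at 12.5 CPM in WT and 15.7 CPM in Mut, a ratio of 1.26 (1.12 to 1.41), and the ratio was 1.18 in female and 1.39 in male cells. With cells thinned to 1000 UMIs its log2 ratio was -0.016. TMM scaling shifts log2 ratios in astroglia by -0.043, which puts Ahdc1 (log2 ratio 0.33) and Asxl3 (0.34) under the fold. Asxl3 and Myt1l, past the fold at 1.27 and 0.75, rested on 85 and 75 UMIs in WT and 119 and 62 in Mut, and their intervals held 1. The ratio of Asxl3 was 2.04 (1.19 to 3.68) in female and 0.93 (0.55 to 1.57) in male astroglia. Ank2 was at 173 CPM in WT and 145 CPM in Mut, a ratio of 0.84 (0.81 to 0.87) that did not reach the fold. In female cells it was at 186 and 130 CPM (ratio 0.69, 0.66 to 0.73) and in male cells at 166 and 173 CPM (1.04, 0.99 to 1.10).

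In oligodendrocyte precursors 1 of 27 genes was higher and none lower, beside 5.93% and 2.43%. It was Asxl3, at 26.2 CPM in WT and 37.4 CPM in Mut, a ratio of 1.43 (1.23 to 1.65). The ratio was 1.46 (1.18 to 1.82) in female cells and 1.49 (1.16 to 1.92) in male cells. It lay on the same side in both sexes, and in GABAergic neurons it was 1.15 (1.002 to 1.33). Nlgn3 had a ratio of 1.24 (1.17 to 1.31), just under the fold.

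**Figure D4:**
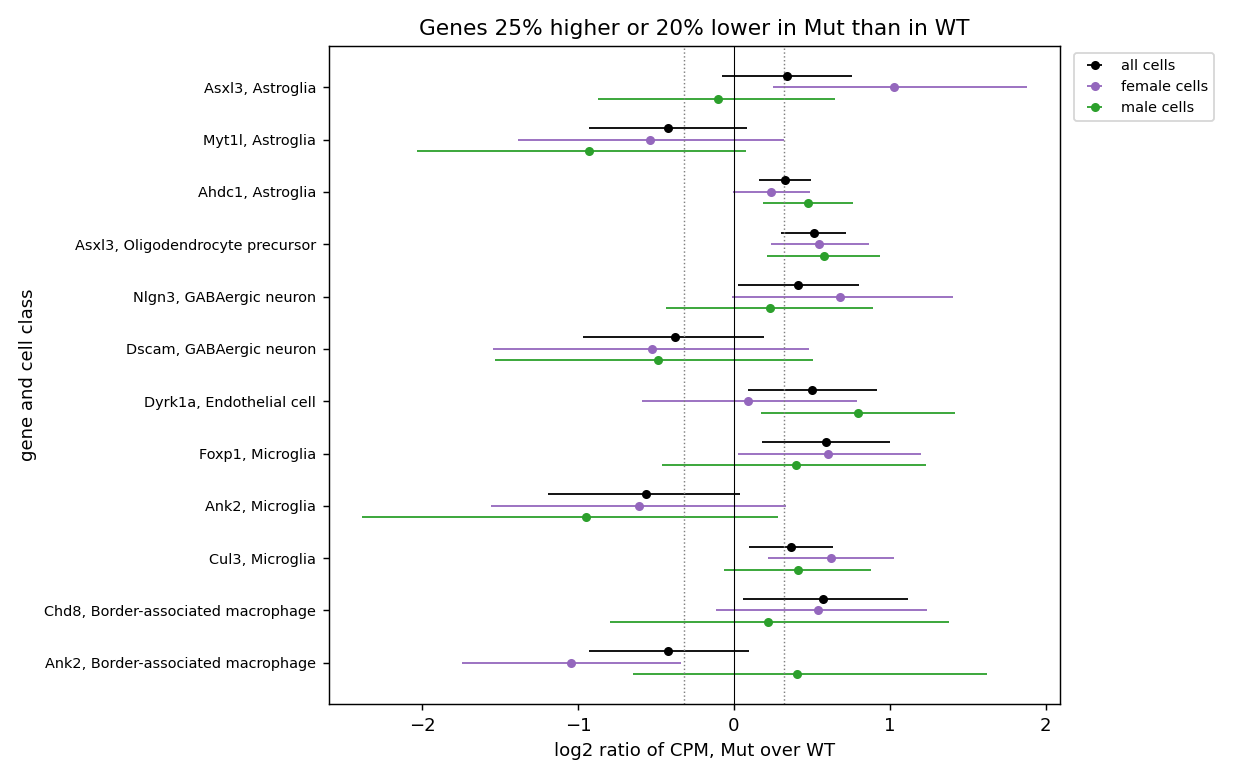
Log2 ratio of CPM, Mut over WT, of the 12 pairs of gene and class past the fold (dotted lines, 25% higher and 20% lower), with 95% counting intervals, for all cells (black), female cells (purple) and male cells (green). Asxl3 in oligodendrocyte precursors (ratio 1.43) is right of 0 in all 3 sets of cells, whereas Ank2 in border-associated macrophages lies on opposite sides in female and male cells.

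In GABAergic neurons 1 of 26 genes was higher and 1 lower, beside 12.6% and 3.22%. Nlgn3 was at 17.1 CPM in WT and 22.7 CPM in Mut, a ratio of 1.33 (1.02 to 1.74), at a level below that of the free RNA. Dscam, at 10.6 and 8.14 CPM, had a ratio of 0.77 (0.51 to 1.14) from 67 and 43 UMIs. In endothelial cells 1 of 20 genes was higher and none lower, beside 9.54% and 4.52%. Dyrk1a was at 15.9 CPM in WT and 22.5 CPM in Mut, a ratio of 1.42 (1.06 to 1.89), with 1.06 (0.67 to 1.73) in female and 1.73 (1.13 to 2.68) in male cells. None of these 3 genes had an interval that left out 1 in both sexes.

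Mural cells had none of 15 genes past the fold, beside 12.5% higher and 5.94% lower over all genes. The highest ratio there was that of Setd5 (1.2497, 0.93 to 1.68, just under the limit) and the lowest that of Chd2 (0.85, 0.62 to 1.16). In microglia 2 of 19 genes were higher and 1 lower, beside 16.8% and 4.89%. Foxp1 was at 31.9 CPM in WT and 48.0 CPM in Mut, a ratio of 1.503 (1.13 to 1.999). Cul3 was at 78.2 and 101 CPM, a ratio of 1.29 (1.07 to 1.55), with 1.54 in female and 1.33 in male cells. TMM scaling shifts log2 ratios in microglia by -0.12, which puts Cul3 (log2 ratio 0.37) under the fold. Ank2, at 22.5 and 15.2 CPM, had a ratio of 0.68 with an interval that held 1.

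In border-associated macrophages 1 of 15 genes was higher and 1 lower, beside 16.7% and 7.47%. Chd8 was at 54.7 CPM in WT and 81.4 CPM in Mut, a ratio of 1.49 (1.04 to 2.17), from 39 and 151 UMIs. Ank2 was at 70.1 and 52.3 CPM, a ratio of 0.75 (0.52 to 1.07). It was 0.49 (0.30 to 0.79) in female and 1.32 (0.64 to 3.08) in male cells.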

How the data were processed

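The authors deposited raw counts of UMIs per gene and barcode for both libraries, written by Cell Ranger 4 per the file headers. Reads were mapped to GRCm38 by tools that the submitters' processing notes give as STAR and Cell Ranger. The annotation release and strand use are not given in the sources used here. Per the labels' protocols, tissue was dissociated with trypsin and collagenase, strained, sorted and run on a 10x Chromium controller. The series design speaks of 3 replicates per sample, but cells could not be assigned to them, so each genotype was 1 sample and no p-value was computed. The libraries held 93664707 (WT) and 97891513 (Mut) UMIs.

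In Python 3.11.15, each marker's CPM was scaled to its 90th percentile among barcodes with a UMI. A cell took the class with the highest mean score if that was at least 0.2, led the next by 0.1 and rested on 3 markers. These limits were settled after the scores were seen. Cells that met no rule, or markers of several classes alike, were left out (1233 WT, 907 Mut). No doublet caller was used in the reported values. Of the barcodes with the highest Scrublet scores (972 WT, 816 Mut), 741 and 581 remained in a class. Counts were summed per class and library. Levels have exact Poisson intervals and ratios exact conditional binomial intervals. Class comparisons needed 2-fold in both libraries and 100 UMIs, genotype comparisons 100 UMIs and a level 25% higher or 20% lower. The ratios and both kinds of interval were tested on simulated class sums with known ratios. The summing of cells and the calling rules were not part of that test. Alternatives used Scrublet and Leiden clustering in scanpy 1.11.5 and TMM scaling in edgeR 4.0.16.

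All 29 genes are named. In each class those past this limit between genotypes are given, or else the highest and the lowest ratio, and of each pathway list the 2 genes with the highest and the 2 with the lowest ratio of GABAergic neurons to astroglia. Some genes that this rule selects are not reported here. The genes and lists were chosen with earlier results of these data known. Positions are from GENCODE and promoters from RefSeq (GRCm38.p6).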

Additional observations from a re-analysis of the deposited data

Results flagged for a closer look

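Among the pairs of gene and class with at least 100 UMIs, Foxp1 was the gene whose ratio between genotypes lay above 1 in a class and below 1 in another, with an interval that left out 1 in each. In microglia the ratio of Mut to WT was 1.503 (1.133 to 1.999), at 31.9 CPM in WT and 48.0 CPM in Mut. In GABAergic neurons it was 0.8341 (0.709 to 0.9801), at 58.8 and 49.1 CPM. The difference between the classes was not tested, since each genotype has 1 library. In microglia the ratio was 1.52 (1.02 to 2.30) in female cells and 1.32 (0.73 to 2.35) in male cells. In GABAergic neurons it was 0.87 (0.66 to 1.14) in female and 0.91 (0.70 to 1.18) in male cells, so both intervals there held 1.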

How the results depend on the processing

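No paired analysis was possible because each genotype has 1 library. Of 224 values of the 16 counts of genes or pairs under 15 alternatives, 199 stayed within 1.5-fold. With cells thinned to 1000 UMIs, fewer genes were tested (25 in the comparison of precursors with astroglia), and counts moved to 4 higher and 0 lower in precursors, 1 higher in endothelial cells, 0 higher and 4 lower in microglia, 3 lower in oligodendrocytes and 4 lower in dividing GABAergic cells. TMM scaling gave 4 higher in precursors. It shifted log2 ratios to astroglia by -0.22 in GABAergic neurons and 0.13 in microglia, and those of oligodendrocytes to precursors by 0.20. Genotype log2 ratios shifted by -0.12 in microglia, -0.043 in astroglia, -0.089 in GABAergic neurons and 0.054 in border-associated macrophages. Cul3 in microglia and Ahdc1 and Asxl3 in astroglia then fell under the fold. Tcf4 and Tbl1xr1 in border-associated macrophages then passed it as higher, and Foxp1 in GABAergic neurons as lower. Male cells alone gave 0 lower in precursors, and female cells alone 0 higher in microglia. Classes from clusters gave 2 higher in microglia, 2 higher and 2 lower in oligodendrocytes and 5 lower in dividing GABAergic cells. Of the cells named by both, 98.43% had the same class as under the marker rule. Without the unequally held astroglia clusters, a choice made after seeing the data, 0 genes were higher in microglia. Pairs higher in Mut numbered 14 in female cells (of 126 pairs tested), 13 in male cells (of 103), 3 at a minimum of 300 UMIs and 13 with each cell weighted alike. Pairs lower in Mut numbered 1 under a stricter marker rule, 1 in female cells, 10 at a minimum of 30 UMIs, 0 at 300 UMIs, 2 after adding 5 CPM and 2 with the highest doublet scores removed. Of the named genotype ratios, 1 of 129 values under alternatives reversed, that of Ahdc1 in astroglia (log2 ratio -0.01649 when thinned). Of the named class ratios, 2 of 485 reversed, those of Bcl11a (1.243) and Myt1l (0.5417) in oligodendrocytes with classes from clusters. The cause of these changes was not tested. Small classes limit depth most: excitatory neurons held 115582 WT and 162578 Mut UMIs, so 3 UMIs there equal 26.0 and 18.5 CPM.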
